A study of Cyprinus carpio with 12 samples.

Results

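Places in the genome of common carp (Cyprinus carpio) that were listed both for sperm and for mid-blastula embryos are described here, with embryos from fresh sperm set against fresh sperm. The deposited tables hold differentially methylated regions (DMRs), stretches of neighbouring CpG sites that the authors listed because their methylation differed with sperm storage. A shared region was defined as a sperm DMR and an embryo DMR that overlap by at least 50% of both lengths. There were 1020 shared regions among 41022 sperm DMRs and 39021 embryo DMRs, which is 2.49% of the sperm list and 2.61% of the embryo list, and no DMR belonged to more than 1 of them. Both deposited lists hold more DMRs than the paper reports, so these shares are of the deposited lists. Of the 1020, 909 lay on the 50 chromosomes and 111 on joined unplaced sequence.

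The 12 whole-genome bisulphite libraries form 4 groups of 3. Embryos from fresh sperm were collected at the mid-blastula stage as pools of 50 to 60 embryos, and fresh sperm was sampled from 3 males at day 0. Embryos from sperm stored for 14 days and sperm kept on ice in an extender for 14 days are the matching stored groups. According to the methods, each male gave both a fresh and a stored sample, and the sperm samples were used separately for fertilisation. The methods describe males that were 5 years old and eggs of a single 7-year-old female, both after carp pituitary injection, and no strain or genotype is given. Embryo DNA therefore holds maternal and paternal copies of every region whereas sperm DNA holds only paternal ones. The sperm and the embryo DMR of a shared region also need not cover the same CpGs. Differences of stage, of parental copy, of preparation and of CpGs covered cannot be told apart. Each table gives 1 mean level per group and region, so no level carries a replicate error or a depth, no single region could be tested, and differences are given as descriptions in percentage points.

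Cytosines in CpG pairs carry a methyl group that is copied after replication by the maintenance methyltransferase Dnmt1. In zebrafish, a relative of carp, the sperm pattern is largely kept in the early embryo and the maternal genome takes on a sperm-like pattern by about the mid-blastula stage, when the embryo starts to transcribe its own genes. Vertebrate sperm is mostly methylated, and regions of intermediate level can reflect a mixture of cells, of alleles or of individuals.

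Shared regions were less methylated than the rest of each list. The median level of embryos from fresh sperm was 70.1% in shared regions (quartiles 46.9% and 85.1%), against 85.9% in embryo DMRs that were not shared. Fresh sperm had a median of 72.5% in shared regions (quartiles 49.7% and 84.6%), against 84.6% in other sperm DMRs. Intermediate levels of 25% to 75% accounted for 46.7% of shared and 20.3% of other regions in embryos, and for 47.5% of shared and 19.8% of other regions in fresh sperm. Regions with 10 or more CpGs were also more common, at 30.2% of shared against 12.5% of other embryo DMRs and 30.5% of shared against 11.5% of other sperm DMRs. The mean of the sperm and the embryo DMR of a shared region was typically 7 CpGs over 86.5 bp. Start and end were identical in 89 shared regions, of which 79 also had the same number of CpGs. Over all shared regions, the sperm and the embryo DMR had the same number of CpGs in 279.

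Levels in embryos from fresh sperm lay on either side of those in fresh sperm in similar numbers of regions. The median of embryos minus sperm was -0.64 points (quartiles -11.1 and 9.53). Embryos were higher in 486 and lower in 534 shared regions, or higher in 47.6% (95% Wilson interval 44.6 to 50.7, which treats regions as independent and covers counting error only). Across the 1020 regions, which share the same libraries, Pearson's r between the levels was 0.818 and Spearman's rank correlation 0.772. The correlations of embryos from fresh sperm with stored sperm were no lower, at 0.840 and 0.805. In the 89 regions with identical ends Pearson's r was 0.873 and the median absolute difference 11.5 points. Over all 1020 regions the levels differed by less than 5 points in 308 and by less than 10 points in 491 (48.1%). The median absolute difference over all was 10.4 points.

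**Figure D1:**
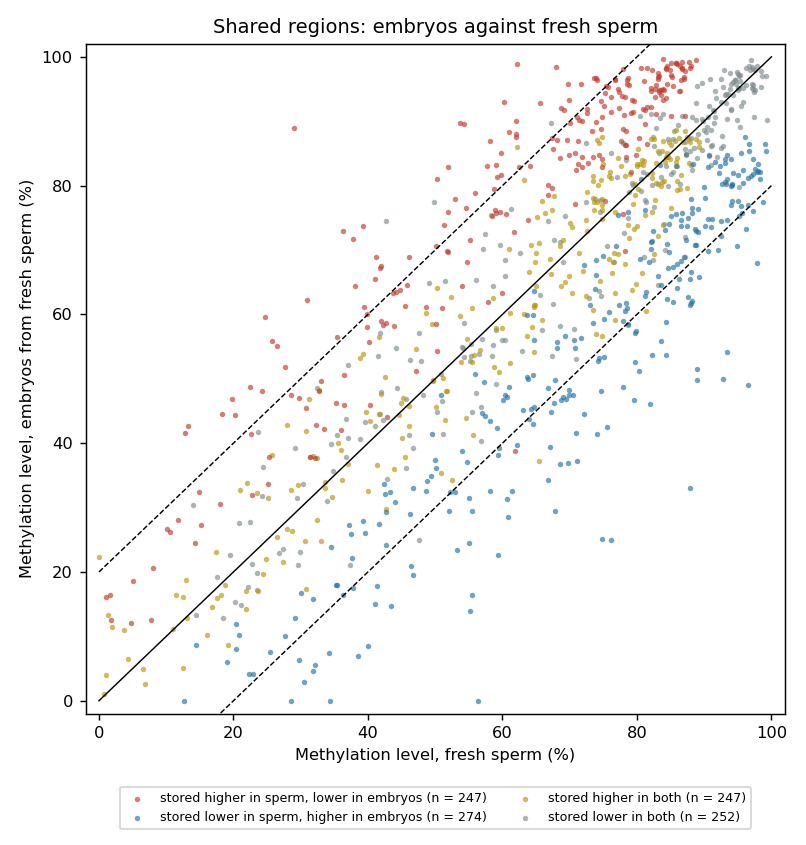
Methylation level (%) of the 1020 shared regions in embryos from fresh sperm (vertical axis) against fresh sperm (horizontal axis), with 1 point per region, the line of equal levels and dashed lines at 20 points. Colours give the direction of the storage difference in each tissue. Of the 166 points on or outside the dashed lines, 157 have the 2 mixed-direction colours.

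Most regions kept their class of level. Of the regions at 75% or more in fresh sperm, 75.3% (344 regions) were also at 75% or more in embryos, 24.5% (112) were at 25% to 75% and 1 was under 25%. Of the intermediate regions of fresh sperm, 69.9% (339) were intermediate in embryos, 21.4% (104) were high and 8.66% (42) were low. Of the regions under 25% in fresh sperm, 67.9% (53) stayed under 25% in embryos, 32.1% (25) were intermediate and 0 were high. Levels of at least 95% were listed for 91 regions in embryos and 60 in fresh sperm, 24 of them the same, and levels under 5% for 12 regions in embryos and 11 in fresh sperm, 2 of them the same.

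A difference of 20 points or more was found in 166 shared regions, or 16.3%. The level was higher in embryos in 66 regions (6.47%) and lower in 100 (9.8%). Among all 3363 overlaps of at least 1 bp these shares were 17.9%, 6.57% and 11.3%. Median levels over the 66 higher regions were 79.1% (embryos from fresh sperm) and 52.5% (fresh sperm). Over the 100 lower regions they were 44.7% (embryos from fresh sperm) and 70.7% (fresh sperm). In the stored groups embryos and sperm had the opposite sign in 60 of the 66 and in 91 of the 100. A difference of 30 points or more was found in 42 regions, and of 40 points or more in 8. At the threshold, the smallest difference counted was 20.0 points and the largest not counted 19.99 points. Several regions had the lowest overlap counted, 50%, with differences that included -22.0 points (LOC109082265), -1.10 points and 25.6 points (LOC109088674). The highest overlap not counted was 49.6%, with a difference of -22.2 points.

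The differences were then set beside the direction of the storage difference. In the whole lists the stored and fresh groups differed by 20 points or more in 9.98% of embryo DMRs and 9.27% of sperm DMRs, and in shared regions in 24.7% for embryos and 20.6% for sperm. The smallest storage difference in either list was 10 points, so the fresh level of every region lay at least that far from its stored level. Where storage went with a higher level in 1 tissue and a lower level in the other, the fresh and the stored difference between embryos and sperm therefore lay at least 20 points apart, a gap that comes with the choice of regions. Shared regions with such mixed directions numbered 521, of which 512 had opposite signs in the fresh and the stored groups, and 499 had the same direction in both tissues. Of the 166 differing regions 157 were mixed, so that 30.1% of mixed and 1.80% of same-direction regions differed by 20 points or more.

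Each of the 4 combinations of directions had its own median. In the 247 regions where stored was above fresh in sperm and below fresh in embryos, the median was 84.8% in embryos from fresh sperm and 68.7% in fresh sperm, with 61 regions higher in embryos by 20 points or more and 1 lower. The stored groups of these 247 regions had medians of 66.4% in embryos and 85.4% in sperm. In the 274 regions with the reverse combination the median was 56.6% in embryos from fresh sperm and 77.1% in fresh sperm, with 0 higher and 95 lower. Their stored groups had medians of 75.7% in embryos and 58.6% in sperm, the mirror image of the fresh groups. In the 247 regions where stored was higher in both tissues the fresh medians were 64.7% in embryos and 65.9% in sperm, with 2 higher and 2 lower. In the 252 regions where stored was lower in both, they were 78.4% in embryos and 80.5% in sperm, with 3 higher and 2 lower.

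**Figure D2:**
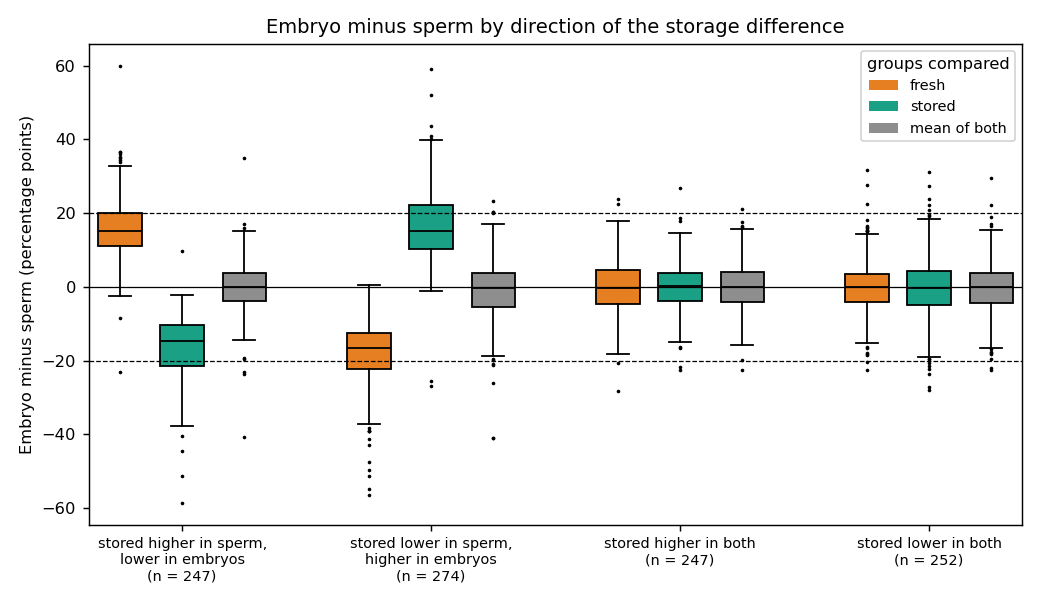
Embryo minus sperm difference (percentage points) in the fresh groups, in the stored groups and for the mean of both, for the 4 combinations of storage direction. Boxes give the median and quartiles over regions, whiskers reach 1.5 times the box height, and dashed lines mark 20 points. Fresh and stored medians have opposite signs in the 2 mixed combinations (15.2 and -14.8 points, then -16.5 and 15.0), and the medians of the mean lie between -0.46 and 0.02 points in all 4.

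When the fresh and stored levels of a tissue were averaged, embryos and sperm differed little. The median absolute difference was 4.10 points, 85.5% of shared regions differed by less than 10 points, and 18 regions (1.76%) differed by 20 points or more, 7 higher and 11 lower in embryos. Pearson's r between the averaged levels was 0.948 and Spearman's rank correlation 0.929. By construction, this averages over opposite storage differences in the 521 mixed-direction regions. Embryos from fresh sperm were closer in level to fresh sperm in 497 regions and to stored sperm in 523, and embryos from stored sperm were closer to stored sperm in 505 and to fresh sperm in 515. These counts followed the combination of directions. Among same-direction regions embryos from fresh sperm were closer to fresh sperm in 445 of 499, and among mixed ones in 52 of 521. Where the averaged levels of both tissues are alike, this split comes with how the combinations are defined and is no separate result.

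**Figure D3:**
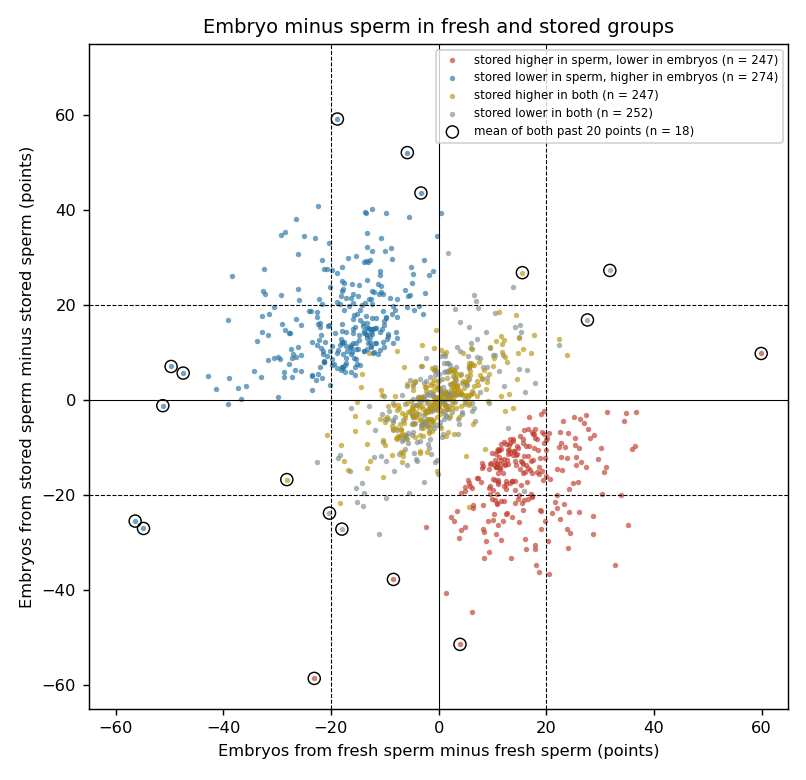
Embryo minus sperm difference in the stored groups (vertical axis) against the fresh groups (horizontal axis), both in points, for the 1020 shared regions. Of the 521 mixed-direction regions, 512 fall in the upper left or lower right, where the differences have opposite signs. Black rings mark the 18 regions whose mean of both differences is 20 points or more.

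The same direction with 20 points or more in both the fresh and the stored groups was found in 5 regions, singled out after their values were seen and none in a gene with a symbol. An intergenic region of A21 (6728851 to 6728865 in embryos, 6728843 to 6728867 in sperm) was listed close to 0% in embryos from fresh sperm and at 56.4% in fresh sperm, with 13.9% in embryos from stored sperm and 39.4% in stored sperm. A region on unplaced sequence had 33.1% in embryos from fresh sperm and 87.9% in fresh sperm, with 44.0% and 71.1% for embryos from stored sperm and stored sperm. A region of B1 (30519132 to 30519265 in embryos, 30519159 to 30519323 in sperm), where the genes LOC109080469 and LOC109062409 are annotated, had 38.7% in embryos from fresh sperm and 61.8% in fresh sperm, and 22.7% in embryos from stored sperm and 81.3% in stored sperm. In these 3 regions both kinds of embryo lay below both kinds of sperm. In LOC109074873 on A24 (4834590 to 4834694 in embryos, 4834553 to 4834662 in sperm) the level was 58.4% in embryos from fresh sperm and 78.7% in fresh sperm, with 33.7% in embryos from stored sperm and 57.5% in stored sperm. The only one of the 5 that was higher in embryos was an intergenic region of A9 (21243126 to 21243305 in embryos, 21243126 to 21243309 in sperm), at 74.5% in embryos from fresh sperm and 42.7% in fresh sperm, with 50.8% in embryos from stored sperm and 23.5% in stored sperm. Here both kinds of embryo lay above both kinds of sperm.

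Genes were reached by 79 of the 166 differing regions, of which 72 lay in a gene body and 7 in the 1 kb flank of a gene. Of the rest, 65 were intergenic and 22 on unplaced sequence. Among the 517 shared regions in a gene or its flank 15.3% differed, with 36 higher in embryos (6.96%) and 43 lower (8.32%). The share was in gene bodies 15.6%, in flanks 12.5%, between genes 16.6% and on unplaced sequence 19.8%, against 16.3% over all. The share was 16.0% for regions in protein-coding genes, 16.7% in long non-coding RNA genes and 7.69% (4 of 52) in pseudogenes. Carp is allotetraploid, and by subgenome the share was 16.7% of 431 regions on A chromosomes and 15.1% of 478 on B chromosomes. Apart from pseudogenes, these shares lay between 12.5% and 19.8%, and they were not tested. Mixed-direction regions, which held most differing regions, were also fewer in pseudogenes (17 of 52) and flanks (22 of 56) than over all (521 of 1020). They were fewer in long non-coding RNA genes as well (21 of 48), where the share of differing regions was not lower (16.7%). Whether the mix of directions goes with these shares was not tested. The 1020 shared regions reached 542 annotated genes, 85 of which carry a symbol other than a locus or clone number. The 166 differing regions reached 84 genes, 11 of them with such a symbol.

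All 11 lay in gene bodies, in mixed-direction regions, with the opposite sign in the stored groups. Overlap was lowest in msi2a, at 50.3% of the longer DMR, with 12 CpGs in sperm and 5 in embryos. It was 51.0% in man2a1 (13 and 7 CpGs), 53.8% in asphd1 (5 and 7), 54.4% in stat4 (16 and 7) and 55.7% in cacfd1 (5 and 9). In the other genes it lay between 74.2% (sned1) and 100% (epc1a). Among the 5 genes with a higher level in embryos from fresh sperm, the largest difference was in nos1apa, which encodes an adaptor of neuronal nitric oxide synthase (A6, 22115740 to 22115805 in embryos, 22115723 to 22115790 in sperm). The level of nos1apa was 83.0% in embryos from fresh sperm and 51.9% in fresh sperm, and 55.0% in embryos from stored sperm and 69.0% in stored sperm. Fresh sperm was thus the lowest of the 4 groups and embryos from fresh sperm the highest. The region in msi2a, a Musashi-type RNA-binding protein gene (B10, 17656234 to 17656321 in embryos), had 88.0% in embryos from fresh sperm and 62.0% in fresh sperm, and 62.4% and 79.6% in embryos from stored sperm and stored sperm. In epc1a, whose product belongs to a histone acetyltransferase complex in other species, embryo and sperm DMR had the same ends (B12, 21854764 to 21854851). Its level was 76.6% in embryos from fresh sperm and 54.6% in fresh sperm, and 52.7% in embryos from stored sperm and 72.7% in stored sperm. Each embryo group of epc1a was thus closer to the sperm group of the other storage state. This is common to mixed-direction regions. Embryos from fresh sperm were closer to stored sperm in 469 of the 521, and embryos from stored sperm closer to fresh sperm in 457.

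The region in asphd1 (A3, 27034648 to 27034673 in embryos) had 70.7% in embryos from fresh sperm and 50.1% in fresh sperm, and its stored groups were further apart, with 41.8% in embryos and 78.3% in sperm. In man2a1, a gene of N-glycan trimming in the Golgi (B5, 23454283 to 23454356 in embryos), the level was 98.1% in embryos from fresh sperm and 78.0% in fresh sperm, and 84.8% in embryos from stored sperm and 92.8% in stored sperm. The region of man2a1 was highly methylated in all 4 groups.

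Among the 6 genes with a lower level in embryos, cacfd1, which encodes a membrane protein with a flower domain (B21, 4417974 to 4418043 in embryos), had 57.2% in embryos from fresh sperm and 79.7% in fresh sperm, and 68.2% in embryos from stored sperm and 50.8% in stored sperm. This region also lies in LOC109055946, a longer annotated gene (16524 bp, against 5226 bp for cacfd1). A second shared region close by in both genes (4418459 to 4418575 in embryos) went the other way, with 64.5% in embryos from fresh sperm and 54.0% in fresh sperm. Its stored groups had 45.0% in embryos and 66.0% in sperm. In the fresh groups these neighbouring regions thus differed in opposite directions, and both signs were reversed in the stored groups. With fresh and stored levels averaged, embryos minus sperm was -2.55 points in the first region and -5.26 points in the second. In tia1, an RNA-binding protein gene known for stress granules (B5, 23507205 to 23507276 in embryos), the level was 64.1% in embryos from fresh sperm and 86.0% in fresh sperm, and 83.6% in embryos from stored sperm and 72.6% in stored sperm. The region of stat4, a transcription factor gene of cytokine signalling (A9, 22835453 to 22835545 in embryos), had 48.3% in embryos from fresh sperm and 70.0% in fresh sperm, with 59.0% and 54.3% in embryos from stored sperm and stored sperm. For stat4 fresh sperm stood above the other 3 groups.

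In tjp1a, which encodes a scaffold of tight junctions (B7, 17912495 to 17912504 in embryos), the level was 66.5% in embryos from fresh sperm and 88.1% in fresh sperm, and 98.7% in embryos from stored sperm and 69.1% in stored sperm. In sned1, a gene of an extracellular matrix protein (B6, 15279363 to 15279540 in embryos), it was 69.9% in embryos from fresh sperm and 90.6% in fresh sperm, and 93.0% and 65.4% in embryos from stored sperm and stored sperm. In both genes the stored difference was larger than the fresh one and of opposite sign. The least methylated of the 11 was rb1, the retinoblastoma gene that restrains the cell cycle (A21, 11733885 to 11733948 in embryos), with 17.5% in embryos from fresh sperm and 37.8% in fresh sperm, and 37.3% in embryos from stored sperm and 21.6% in stored sperm.

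**Figure D4:**
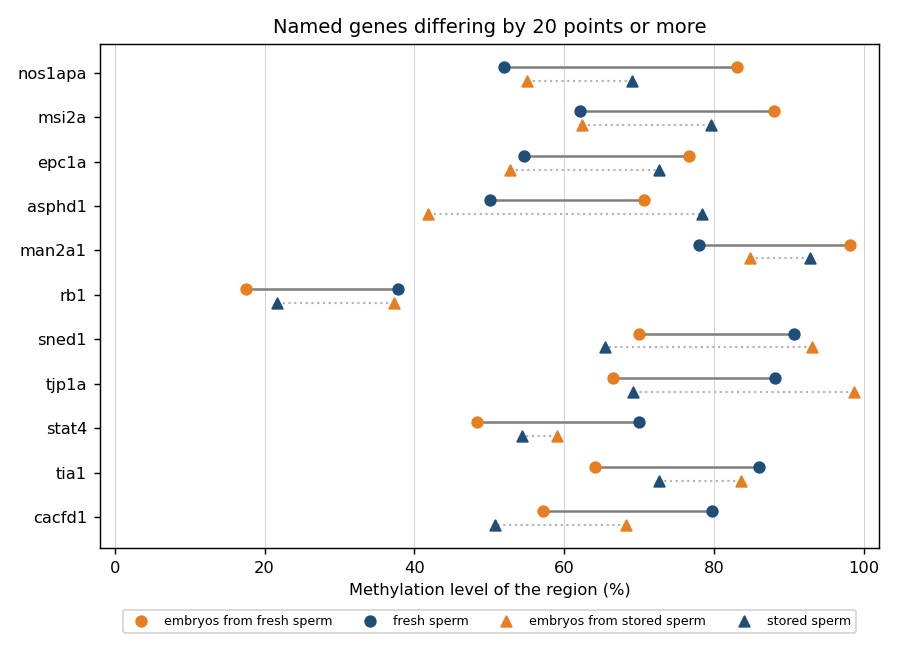
Methylation level (%) of the shared region in the 11 genes with a symbol that differed by 20 points or more, ordered by embryo minus fresh sperm. Orange marks embryos and blue sperm, circles the fresh and triangles the stored groups, and solid and dotted lines join embryos and sperm of the fresh and stored groups. In all 11 genes the order of embryos and sperm is reversed between circles and triangles.

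The largest differences lay in genes known by locus number and between genes. In the protein-coding gene LOC109084161 (B22, 4481650 to 4481863 in embryos, 4481650 to 4481914 in sperm), the level was 24.9% in embryos from fresh sperm and 76.2% in fresh sperm, while the stored groups were alike, with 56.3% in embryos and 57.5% in sperm. This gene held 3 shared regions, and the other two, which also overlap other annotated genes, differed between embryos and fresh sperm by 2.56 and -1.68 points. In the protein-coding gene LOC109092920 (B7, 13686436 to 13686453 in embryos) the level was 49.1% in embryos from fresh sperm and 96.6% in fresh sperm, with 92.0% and 86.3% in embryos from stored sperm and stored sperm, so embryos from fresh sperm stood apart from the other 3 groups. The long non-coding RNA gene LOC122147036 (A12, 18000193 to 18000260 in embryos) had 13.9% in embryos from fresh sperm and 55.1% in fresh sperm, and 39.3% and 37.1% in embryos from stored sperm and stored sperm. On the other side, the largest difference in a gene was in the long non-coding RNA gene LOC122140169 (B17, 14945998 to 14946130 in embryos), with 98.8% in embryos from fresh sperm and 62.2% in fresh sperm, and 82.0% and 84.6% in embryos from stored sperm and stored sperm. The largest of all was a region of 5 CpGs on unplaced sequence with 88.9% in embryos from fresh sperm and 28.9% in fresh sperm, and 57.5% and 47.7% in the stored groups. These regions were picked by the size of the difference, and in all 5 both stored levels lay between the fresh ones. All 5 were mixed-direction regions in which storage went with levels closer to the other tissue's fresh level. With fresh differences this large, the pattern comes largely with the pick and is no separate result.

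Several shared regions fell in a single gene in 14 annotated genes, counting separately cacfd1 and LOC109055946, which hold the same 2 regions. LOC109062990, a protein-coding gene of 972510 bp on A4, held 3 regions, with 84.6% in embryos from fresh sperm and 90.7% in fresh sperm at 33981919 to 33981983, 79.0% and 72.5% in embryos and sperm at 34245892 to 34245966, and 75.8% and 88.1% in embryos and sperm at 34511627 to 34511708. In LOC109110033 (B18), 2 regions next to each other differed in opposite directions, with 58.5% in embryos and 78.7% in fresh sperm at 14884263 to 14884427, and 58.3% in embryos and 42.3% in fresh sperm at 14884491 to 14884511. In the fresh groups embryos had nearly the same level in both of its regions and sperm did not. The stored groups had the reverse, with 68.7% and 69.4% in sperm and 71.7% and 40.2% in embryos. In dhdh.1 (B18), both regions were close in the fresh groups. Levels were 95.1% in embryos and 95.3% in fresh sperm, and 71.6% in embryos and 67.7% in fresh sperm. The stored groups were further apart, with 68.9% in embryos and 84.4% in sperm, and 58.4% in embryos and 48.1% in sperm.

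Genes of 17 lists of developmental, neural, germ line, chromatin and transport functions were looked up by symbol, and 24 shared regions lay in their genes. Of these 24, 0 differed by 20 points or more between embryos and fresh sperm, beside 16.3% over all shared regions, whereas 6 did so between the stored groups (17.3% over all). The median of embryos minus fresh sperm was 0.83 points, with 12 regions higher and 12 lower. Shared regions were found in 6 of 81 neuronal adhesion genes, 6 of 109 ion channel genes, 3 of 167 small GTPase regulators, 3 of 86 zinc finger and BTB genes, 2 of 52 axon guidance genes, 2 of 120 extracellular matrix and integrin genes, 1 of 109 homeobox and paired-box genes and 1 of 289 solute carriers and pumps. There was no shared region in 13 DNA methylation genes, 61 histone modifiers and remodellers, 44 germ line and sperm structure genes, 123 cilium and motor genes, 24 genes of zygotic genome activation, 47 Wnt and catenin genes, 79 Notch, BMP, FGF and hedgehog genes, 105 synaptic receptors and scaffolds and 22 maternal and yolk genes. Over all 55089 annotated genes, 542 had a shared region, and the list counts were not tested against this share. Only 85 of the 542 carry a symbol, and genes without one could hardly enter a list. The lists are also incomplete, as epc1a and sned1, both described above, are in none of them. A gene with no shared region was not measured here, so nothing follows for its level.

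Among neuronal adhesion genes the contactin-associated gene cntnap5l had 65.9% in embryos from fresh sperm and 83.1% in fresh sperm, a difference of -17.2 points, and the neuroligin gene nlgn3a, a postsynaptic partner of neurexins, had 55.7% and 68.1% in embryos and sperm. The tyrosine phosphatase gene ptprk had 82.0% in embryos and 92.3% in fresh sperm, and the neurofascin gene nfasca 32.2% in embryos and 42.6% in fresh sperm. These 4 were lower in embryos from fresh sperm and higher in embryos from stored sperm than in the sperm beside them. The presynaptic adhesion gene nrxn2b was nearly equal, with 50.7% in embryos from fresh sperm and 50.9% in fresh sperm, and had 19.8% and 32.3% in embryos from stored sperm and stored sperm. The immunoglobulin superfamily gene igsf9bb was higher in embryos from fresh sperm, with 97.8% against 87.1% in fresh sperm. Its stored groups were reversed, with 87.2% in embryos and 98.5% in sperm.

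Of the ion channel genes, kcnab2a (90.0% in embryos from fresh sperm, 71.8% in fresh sperm) and kcnn1a (94.0% and 77.8% in embryos and sperm), which encode a potassium channel subunit and a calcium-activated potassium channel, were higher in embryos. The acid-sensing channel gene asic1a was lower, with 45.1% in embryos and 63.0% in fresh sperm. The other 3 were close, with 44.8% in embryos and 39.7% in fresh sperm in kcnma1a, 98.6% and 96.7% in embryos and sperm in kcnab1a, and 21.5% and 27.3% in embryos and sperm in cacng2b. Ion channel genes thus went in both directions in the fresh groups, with differences between -17.9 and 18.2 points. In the stored groups the sign was reversed in kcnab2a (-8.08 points), kcnn1a (-13.6), kcnma1a (-11.8), asic1a (25.1) and cacng2b (3.43). Only kcnab1a kept its sign (1.26 points).

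Nearest to the threshold among the list genes was the guidance ligand gene slit3, which had 63.3% in embryos from fresh sperm and 43.7% in fresh sperm, a difference of 19.7 points. The netrin receptor gene unc5db had 48.1% in embryos and 51.6% in fresh sperm. The laminin gene lamb4 had 69.8% in embryos and 51.8% in fresh sperm, and the integrin gene itga2.2 77.9% and 73.7% in embryos and sperm. In slit3 and lamb4 the stored groups were reversed and further apart, with 31.5% in embryos and 57.0% in stored sperm for slit3 and 36.1% in embryos and 66.7% in stored sperm for lamb4. The paired-box gene pax5, a B-cell and midbrain regulator, had 80.1% in embryos from fresh sperm and 66.8% in fresh sperm. The stored groups of pax5 were reversed, with 61.4% in embryos and 78.9% in sperm.

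Of the remaining list genes, the engulfment gene elmo2 had 31.5% in embryos from fresh sperm and 25.1% in fresh sperm, and iqgap2 81.9% and 82.3% in embryos and sperm. The transporter gene slc47a1 had 48.0% in embryos and 41.9% in fresh sperm. In the fresh groups the zinc finger genes lay within about 5 points. Levels in embryos and fresh sperm were 76.2% and 73.6% in znf384a, 78.6% and 79.8% in zbtb12.2, and 83.3% and 88.4% in znf385d. The stored groups of znf385d were further apart, with 94.0% in embryos and 66.1% in sperm. The stored difference of embryos minus sperm was -1.66 points in znf384a and -6.5 points in zbtb12.2.

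**Figure D5:**
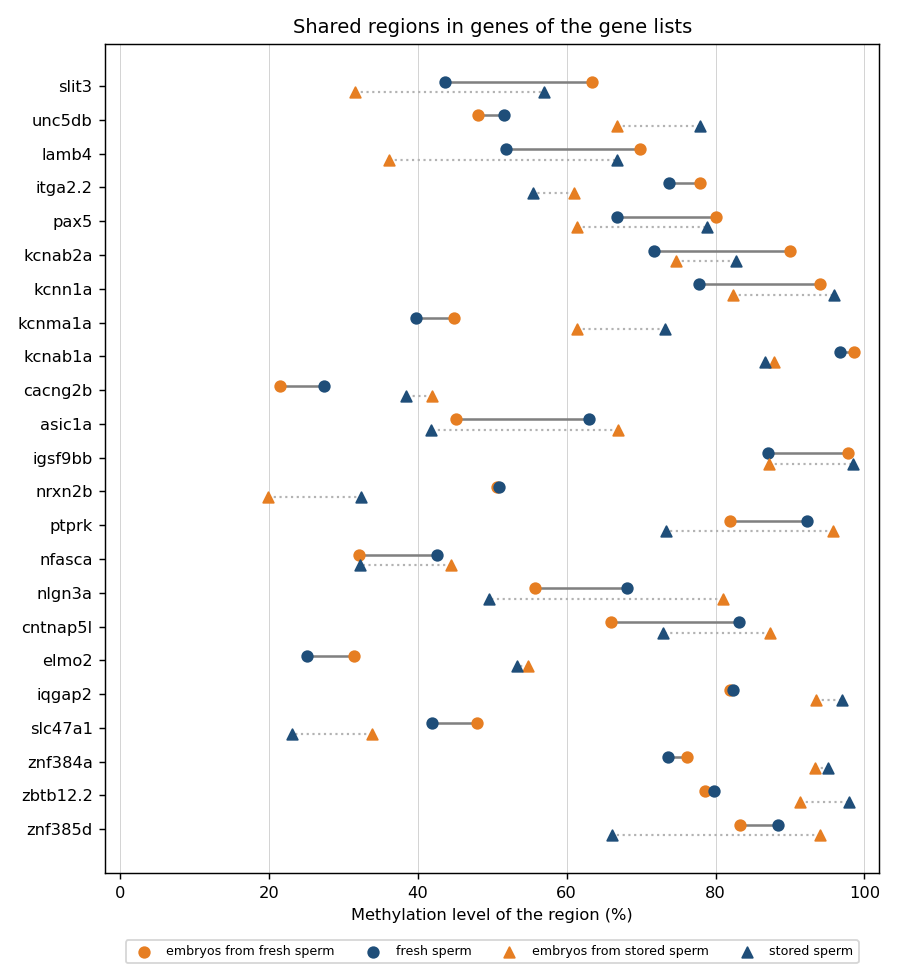
Methylation level (%) of 23 of the 24 shared regions in genes of the lists, grouped by list. Orange marks embryos and blue sperm, circles the fresh and triangles the stored groups, and lines join embryos and sperm of the same storage state. The widest fresh difference is that of slit3 (19.7 points), and iqgap2 and nrxn2b are nearly equal.

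Nearly equal levels in both storage states were found as well. Embryos and sperm differed by less than 2 points in both the fresh and the stored groups in 58 of the 1020 shared regions. Of the 87 shared regions in genes with a symbol, 4 were among them. In mier3a (A10, 18723475 to 18723689 in embryos, 18723511 to 18723762 in sperm) the level was 98.0% in embryos from fresh sperm and 96.8% in fresh sperm, and 84.1% in embryos from stored sperm and 82.3% in stored sperm. In sept9b, a septin gene of the cytoskeleton (B6, 11391337 to 11391362 in embryos), it was 92.3% and 90.8% in embryos from fresh sperm and fresh sperm, and 72.2% and 70.8% in embryos from stored sperm and stored sperm. The glycosyltransferase gene b4galnt4b (B7, 28475307 to 28475332 in embryos) had 95.0% in embryos from fresh sperm and 93.9% in fresh sperm, and 81.4% in embryos from stored sperm and 82.5% in stored sperm, and kcnab1a (B18, 11335807 to 11336012 in embryos) was the fourth. All 4 were nearly fully methylated in the fresh groups and lower in the stored ones. They belong to the regions where stored was lower in both tissues, and the rest of the 58 were not described by level.

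By level, the share of differing regions was highest among those of intermediate methylation. Regions were classed by the mean over the 4 groups, which includes both fresh levels that give the difference. A mean near either end of the scale leaves less room for a gap of 20 points. Whether the order of the classes goes beyond this limit was not tested. Among shared regions whose mean over the 4 groups was 25% to 75%, 25.3% (119 of 470) differed by 20 points or more, against 7.43% (35 of 471) at 75% or more and 15.2% (12 of 79) under 25%. The differing regions had a median of 7 CpGs over 82.0 bp, and the rest 7 CpGs over 87.25 bp. The share past 20 points was 16.7% for regions with 5 to under 6 CpGs and 15.5% for those with 15 or more (mean of the 2 DMRs). By overlap it was 16.0% for overlaps of 50% to under 60% and 14.6% for identical ends.

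Regions rich in CpGs were more often lower than higher in embryos from fresh sperm. With 10 or more CpGs in both DMRs, embryos were higher in 75 and lower in 121 of 196 regions (38.3% higher), with a median difference of -3.26 points. In the stored groups of these regions the balance was the other way, with embryos higher in 114 and lower in 82, and the mean of both was nearly balanced, with 93 higher and 103 lower. Mixed-direction regions among the 196 comprised 67 where stored was lower in sperm and higher in embryos and 37 of the reverse kind. On unplaced sequence 19 of 111 regions were lower and 3 higher by 20 points or more in embryos from fresh sperm. Over all shared regions these shares were 9.8% and 6.47%. In the stored groups of the 111 regions 12 were lower and 15 higher. For the mean of both, embryos were lower by any amount in 60 and higher in 51. Mixed-direction regions among the 111 comprised 34 where stored was lower in sperm and higher in embryos and 24 of the reverse kind. In both cases lower levels of embryos outnumbered higher ones in the fresh groups and not in the stored groups.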

How the data were processed

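Per the study's methods, the authors aligned bisulphite reads to the RefSeq carp assembly ASM1834038v1 with BSMAP (no version stated), removed duplicates and listed windows of at least 5 CpGs that differed between fresh and stored groups by Fisher's test and a 2-fold change. In the deposited lists a 2-fold change between group levels was met by 4.20% of embryo and 3.94% of sperm DMRs, and the smallest difference was 10 points. The deposited levels are fractions from 0 to 1, the authors' mean for a group's 3 libraries, printed here as percentages. The deposited count of CpGs per region was used for subsets. The deposited p-value, and the deposited difference between stored and fresh, hold the authors' own storage contrast and were not used. Regions in neither list are not analysed here.

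DMR coordinates are printed as the tables give them. Overlap was the shared length over the longer DMR, computed in Python 3.11.15 with pandas 2.3.3 and tested on simulated data. Differences are embryo minus sperm. Sequences of the 50 chromosomes were paired, in their listed order, with the A and B chromosomes of RefSeq's gene list for that assembly (55089 genes), where the last DMR and the last gene ended within 129.6 kb of each other (median 19.5 kb). A gene was assigned where both DMRs touched its body or 1 kb on either side. Carp carries near-identical gene copies, and how reads were shared between them was not stated.

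Genes with a symbol were named by rule where embryos and fresh sperm differed by at least 0.2 (the 6 largest differences in each direction where the stored groups did not differ likewise) or by under 0.02 in both storage states. Within the lists no gene reached 0.2. List genes below it, genes with several regions and all loci without a symbol were named after their values were seen. The members and lists were chosen with earlier results of these data known. Alternatives changed the overlap, the number of CpGs, the threshold, the sequences, the storage groups and the gene assignment. The values of 1 list gene are not reported here.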

Additional observations from a re-analysis of the deposited data

How the results depend on the processing

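Levels are means of 3 libraries with no depth or library values, so neither an error nor leaving out a library could be computed, and intervals treat regions as independent. No paired analysis was possible because each table column holds the mean of a group and carries no replicate number. Counts at 20 points or more scaled with the regions used. They were 221 higher and 381 lower at an overlap of 1 bp, 23 and 37 at 80%, 3 and 10 with identical ends, and 11 and 21 with 10 or more CpGs in both DMRs. At 10 points they were 250 and 279 (51.9% of regions), and at 30 points 15 and 27 (4.12%). With the mean of fresh and stored levels 7 regions were higher and 11 lower (1.76%), and with same-direction regions only 5 were higher and 4 lower (1.80%). By construction the first averages over opposite storage differences and the second leaves such regions out. The share of regions higher in embryos was 43.8% with identical ends and 38.3% with 10 or more CpGs. The median difference was -3.26 points with 10 or more CpGs and 0.22 points in the stored groups, and no value carries an error between libraries. The cause of the shift with CpG number was not tested. Using chromosomes only, DMRs with 1 partner only or gene bodies only moved no count by more than 1.5 times. Regions that were not listed in both tissues were not seen.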

Other observations

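DMR overlaps of 1 bp up to just under 50% of the longer DMR, which were not counted as shared regions, numbered 2343. Embryos differed from fresh sperm by 20 points or more in 436 of them (18.6%), of which 88.1% had mixed storage directions, against 94.6% of the 166 differing shared regions. With fresh and stored levels averaged, 95 of the 2343 (4.05%) differed by 20 points or more, against 18 of the 1020 shared regions (1.76%). These shares were not tested.

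Regions with almost no methylation in 1 of the fresh groups were few. In eri2, an exonuclease gene (A1, 39126703 to 39126788 in embryos), the level was close to 0% in embryos from fresh sperm and 12.6% in fresh sperm, with 16.1% and 1.79% in embryos from stored sperm and stored sperm. In evi5b, a gene linked to Rab GTPases (A6, 19161668 to 19161712 in embryos), it was 11.5% in embryos from fresh sperm and 1.87% in fresh sperm, with 27.1% and 16.0% in embryos from stored sperm and stored sperm, so that embryos lay above sperm in both storage states. Both were picked after their values were seen.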
